A study of Mus musculus with 4 samples.

Results

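The S100 genes encode small calcium-binding proteins, and 10 of them are described here in primary mouse keratinocytes, chosen by gene symbol. They are S100a7a, S100a8 and S100a9, whose proteins act against microbes, and S100a4, S100a6, S100a10, S100a11, S100a13, S100a14 and S100a16. Of the 10, 9 had a row among the 13102 genes of the deposited tables, and S100a4 is not analysed here. All 9 reached a mean of 1 CPM (a counts-per-million value) over the libraries, as did 12934 of the 13102 genes.

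The series holds 4 RNA-seq libraries of epidermal keratinocytes from neonatal C57BL/6 mice, cultured for 48 h. One library each came from Il17rd knockout (KO) cells given interleukin-17A (IL-17A), Il17rc KO cells given IL-17A, wild-type (WT) cells given IL-17A, and untreated WT cells. IL-17A was given at 100 ng/mL for 8 h. Il17rc and Il17rd encode chains of the IL-17 receptor family. An untreated library of either KO was not analysed here, so a difference of a KO from WT before treatment and a difference in its response to IL-17A cannot be told apart. Each group is 1 library, so the differences below were not checked in replicates and carry no p-value. How many mice or cultures went into a library is not given.

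Most S100 proteins pair up as dimers and change shape when they bind calcium. S100a8 and S100a9 form calprotectin, which binds zinc and manganese and so withholds them from microbes, and which is abundant in neutrophils and in inflamed epidermis. S100a7a is a mouse relative of the human psoriasins, which are named after psoriasis. The other members act mostly inside cells. S100a10 is the partner of annexin A2, S100a11 binds annexin A1, S100a13 takes part in the release of proteins that lack a signal peptide, and S100a6 is also called calcyclin. In epidermis the S100 genes share a chromosome region with the genes of the cornified envelope, the protein shell of the outermost keratinocytes.

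All 10 genes lie on mouse chromosome 3 (GRCm38, GENCODE M21 annotation) in a pair of blocks. S100a7a (90654017 to 90658669, plus strand), S100a8 (90668978 to 90670035, plus strand) and S100a9 (90692632 to 90695721, minus strand) are neighbours. S100a13, S100a14, S100a16, S100a4 and S100a6 lie before them on the plus strand, between 90514435 and 90624181. S100a11 (93520488 to 93526287) and S100a10 (93555080 to 93564643) stand apart on the plus strand, with the start of S100a10 2886 kb from that of S100a8. None of the 9 measured members overlaps another annotated gene.

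Of the 10 members, 8 had a promoter in the RefSeq table (GRCm38.p6), which spans 250 bases before to 50 bases after an annotated start. The promoters of S100a8 (chr3:90668821-90669120, plus strand), S100a9 (chr3:90695672-90695971, minus strand) and S100a7a (chr3:90654052-90654351, plus strand) are shown because these are the members with the largest differences between libraries. S100a11 (chr3:93520246-93520545, plus strand) is shown for contrast, as the member with the highest level per length. Capitals mark matches, on either strand, to the C/EBP motif TTNNGNAA or the AP-1 motif TGANTCA. The NF-kB motif GGANNNTCC was searched in the same way and had no match in these 4 windows.
S100a8: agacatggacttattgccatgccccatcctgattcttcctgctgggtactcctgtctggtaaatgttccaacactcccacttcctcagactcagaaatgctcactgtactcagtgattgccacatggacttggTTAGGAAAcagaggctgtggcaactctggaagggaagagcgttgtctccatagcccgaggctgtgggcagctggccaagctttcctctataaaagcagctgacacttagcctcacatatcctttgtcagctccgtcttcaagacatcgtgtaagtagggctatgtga
S100a9: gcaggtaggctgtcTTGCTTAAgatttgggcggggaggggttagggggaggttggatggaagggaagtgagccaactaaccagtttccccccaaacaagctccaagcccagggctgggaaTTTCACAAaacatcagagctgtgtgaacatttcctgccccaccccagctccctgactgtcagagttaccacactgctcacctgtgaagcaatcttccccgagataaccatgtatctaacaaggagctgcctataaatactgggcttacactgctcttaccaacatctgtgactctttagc
S100a7a: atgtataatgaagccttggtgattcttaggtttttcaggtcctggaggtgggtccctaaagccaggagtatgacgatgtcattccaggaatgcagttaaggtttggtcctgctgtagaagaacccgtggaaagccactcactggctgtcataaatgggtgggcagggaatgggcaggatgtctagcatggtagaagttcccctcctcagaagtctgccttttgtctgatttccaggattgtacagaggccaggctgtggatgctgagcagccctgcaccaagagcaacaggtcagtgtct
S100a11: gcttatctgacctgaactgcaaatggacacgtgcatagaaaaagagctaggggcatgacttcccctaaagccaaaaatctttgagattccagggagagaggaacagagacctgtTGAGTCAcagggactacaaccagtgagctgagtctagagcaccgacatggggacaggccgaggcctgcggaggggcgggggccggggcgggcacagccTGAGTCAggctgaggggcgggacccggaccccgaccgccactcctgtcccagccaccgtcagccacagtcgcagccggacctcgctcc

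S100a8 held 1 C/EBP match, 117 bases before the start, and S100a9 held 2, at 236 and 130 bases before it. S100a11 held 2 AP-1 matches, at 136 and 38 bases before the start. Among the members whose promoters are not shown, S100a16 held 1 AP-1 match, 192 bases before the start of its promoter 2. S100a4, S100a6 and S100a13 held none of the motifs. S100a7a held none of the motifs. Its window begins at 90654052, after the GENCODE start of the gene at 90654017, so bases before that start were not searched. Among all 32841 promoters of the table, 40.7% held the C/EBP motif, 7.81% the AP-1 motif and 8.62% the NF-kB motif, so the C/EBP match is a common one. A match is a string of letters and not a measured binding site, and none of these matches overlapped another.

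Some facts of the libraries bear on every value below. Total counts lay between 19711866 and 19904695. Il17rd had 5 counts in the Il17rd KO library and 150 to 265 in the others. Il17rc had 439 counts in the Il17rc KO library and 1152 to 2729 in the others, so transcript of the targeted gene was still counted there. The libraries also differed in the Y-linked Ddx3y, with 2 counts in Il17rd KO, 749 in Il17rc KO, 233 in IL-17A WT and 654 in untreated WT, and sex cannot be told apart from genotype and treatment.

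Levels are CPM over library sizes scaled with TMM, a method that equalises the bulk of genes between libraries. A ratio is followed in parentheses by its exact 95% interval from the counts, which covers counting error only. For a pair of libraries, a gene is called higher or lower at 2-fold or more where that interval excludes 1. The 2-fold limit is a log2 ratio of at least 1 in size, with 2 counts added. A fold given with the word lower states a direction and is not by itself a call.

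The antimicrobial members differed between the libraries by far more than the other members did. S100a8 stood at 125 CPM in Il17rd KO, 13.4 CPM in Il17rc KO, 33.4 CPM in IL-17A WT and 3.91 CPM in untreated WT. S100a9 stood at 169, 12.9, 39.3 and 5.37 CPM in the same order of libraries. Both genes were highest in Il17rd KO and lowest in untreated WT, and the counting intervals of the 4 libraries did not overlap for either gene. S100a7a was scarcer, at 3.70 CPM in Il17rd KO, 0.399 CPM in Il17rc KO, 3.37 CPM in IL-17A WT and 1.20 CPM in untreated WT, which are 76, 8, 66 and 23 counts. Its order was another one, with Il17rc KO lowest. Its intervals overlapped between Il17rd KO and IL-17A WT, and between Il17rc KO and untreated WT. As RNA was taken from whole cultures, more cells with a transcript and more transcript per cell cannot be told apart.

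**Figure D1:**
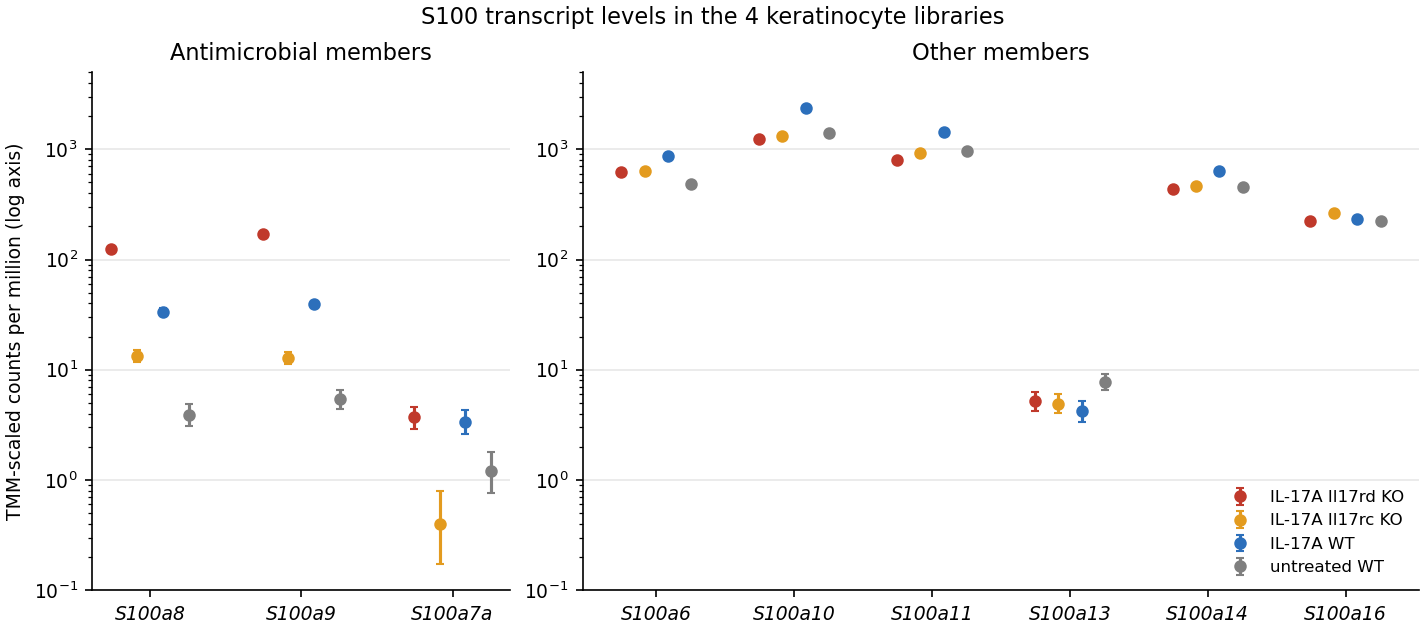
Level of each of the 9 measured S100 members in the 4 libraries, as TMM-scaled CPM on a log axis, with exact 95% Poisson intervals that are hidden by the point where they are narrow. S100a8 and S100a9 reach 125 and 169 CPM in Il17rd KO, against 3.91 and 5.37 CPM in untreated WT, while 5 of the other members had 221 CPM or more in every library.

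IL-17A WT was compared with untreated WT to describe the transcripts of WT cells with the cytokine. All 3 antimicrobial members were called higher. S100a8 had 653 counts in IL-17A WT and 75 in untreated WT, a ratio of 8.53 (6.71 to 11). S100a9 had 770 counts in IL-17A WT and 103 in untreated WT, a ratio of 7.32 (5.96 to 9.08). S100a7a had 66 counts in IL-17A WT and 23 in untreated WT, a ratio of 2.81 (1.73 to 4.74), which makes it the weakest of the 3 calls. By the same rule 8.68% of the 12934 genes tested were called higher and 10.5% lower, 19.2% in all.

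None of the 6 other members was called in this comparison, and 5 of them had ratios above 1. S100a6 had 864 CPM in IL-17A WT and 484 CPM in untreated WT, a ratio of 1.79 (1.74 to 1.83). S100a10 had 2352 CPM in IL-17A WT and 1417 CPM in untreated WT, a ratio of 1.66 (1.63 to 1.68). S100a11 and S100a14 had ratios of 1.46 (1.44 to 1.49) and 1.40 (1.36 to 1.44). S100a16, a widely expressed member, had 233 CPM in IL-17A WT and 226 CPM in untreated WT, and the interval of its ratio, 0.991 to 1.08, included 1. S100a13 ran the other way, with 82 counts in IL-17A WT and 148 in untreated WT, 1.84-fold lower (1.40 to 2.44). The median log2 ratio was 2.85 for the antimicrobial members, 0.52 for the others and 0.00 for all genes tested, so the antimicrobial median exceeded that of the others by 2.33.

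Setting Il17rc KO against IL-17A WT addressed the same transcripts in cytokine-treated cells of the other genotype. All 3 antimicrobial members were called lower. S100a8, with 269 counts in Il17rc KO and 653 in IL-17A WT, was 2.49-fold lower (2.15 to 2.88). S100a9, with 258 counts in Il17rc KO and 770 in IL-17A WT, was 3.06-fold lower (2.65 to 3.54). S100a7a, with 8 counts in Il17rc KO and 66 in IL-17A WT, was 8.45-fold lower (4.05 to 20.4), the widest interval of the 3 because of its few counts. Of all genes tested, 10.7% were called here, 4.68% lower and 6.02% higher.

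The 6 other members lay on the same side or near 1 without a call. S100a10 was 1.78-fold lower (1.75 to 1.81) in Il17rc KO, with 1322 CPM there and 2352 CPM in IL-17A WT. S100a11 was 1.53-fold lower (1.5 to 1.55), S100a14 1.37-fold (1.34 to 1.41) and S100a6 1.35-fold (1.32 to 1.38) lower. S100a16 had a ratio of 1.12 (1.08 to 1.17), and S100a13, with 99 counts in Il17rc KO and 82 in IL-17A WT, had an interval of 0.870 to 1.60. The median log2 ratio was -1.61 for the antimicrobial members, -0.44 for the others and 0.04 for all genes.

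For Il17rd KO against IL-17A WT, the members of calprotectin were called higher. S100a8 had 2575 counts in Il17rd KO and 653 in IL-17A WT, a ratio of 3.76 (3.45 to 4.10). S100a9 had 3470 counts in Il17rd KO and 770 in IL-17A WT, a ratio of 4.29 (3.97 to 4.65). S100a7a was not called, with 76 counts in Il17rd KO and 66 in IL-17A WT and an interval of 0.779 to 1.55. In this comparison 9.65% of all genes were called, 6.05% higher and 3.6% lower.

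The other members, again without a call, lay mostly on the opposite side. S100a10 had 1248 CPM in Il17rd KO and 2352 CPM in IL-17A WT, 1.88-fold lower (1.86 to 1.91). S100a11 was 1.78-fold (1.74 to 1.81), S100a14 1.46-fold (1.42 to 1.5) and S100a6 1.40-fold (1.37 to 1.44) lower in Il17rd KO. S100a16 and S100a13 were nearer to 1, at ratios of 0.949 (0.910 to 0.989) and 1.23 (0.915 to 1.66). The median log2 ratio was 1.91 for the antimicrobial members, -0.52 for the others and 0.01 for all genes.

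**Figure D2:**
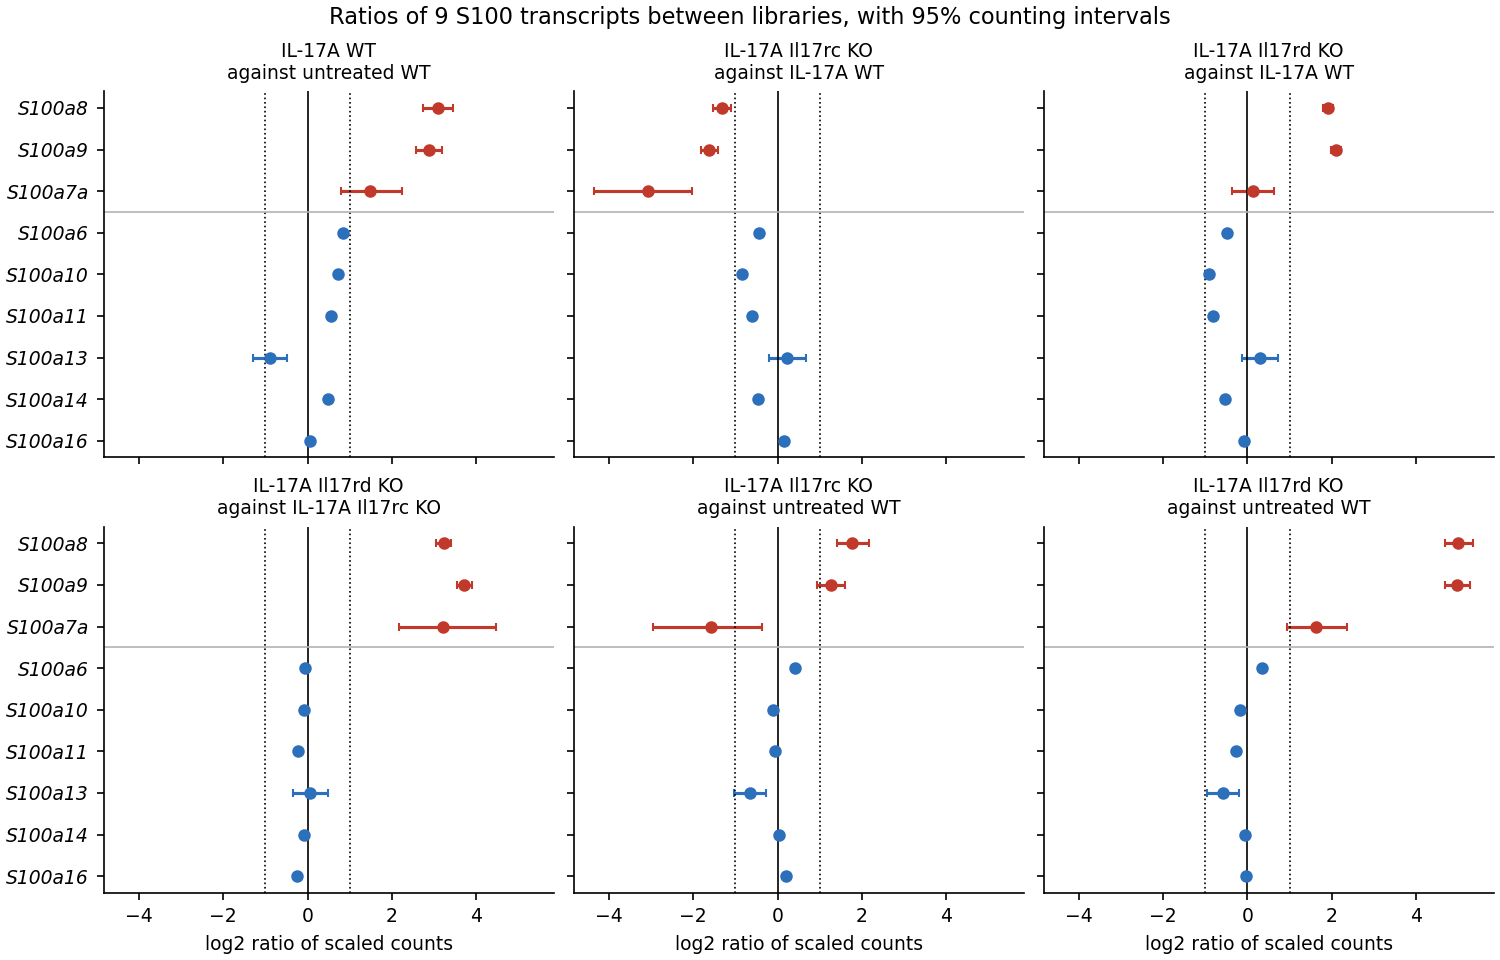
Log2 ratios of scaled counts for the 9 measured members in 6 pairs of libraries, with exact 95% counting intervals. Red points are the antimicrobial members, blue points the others, and dotted lines mark 2-fold. Against IL-17A WT, S100a8 and S100a9 lie beyond the dotted line on the right in Il17rd KO and on the left in Il17rc KO, and none of the 6 other members was called in any panel.

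The Il17rd KO and Il17rc KO libraries, which share cytokine and dose, were set against each other directly. All 3 antimicrobial members were called higher in Il17rd KO, by 9.35-fold (8.24 to 10.6) for S100a8, 13.1-fold (11.6 to 15.0) for S100a9 and 9.28-fold (4.48 to 22.3) for S100a7a. Of all genes 3.93% were called, 2.51% higher and 1.41% lower. The 6 other members had log2 ratios between -0.24 and 0.06, with a median of -0.08 beside -0.02 for all genes. S100a6, S100a10 and S100a14 were 1.04-fold, 1.06-fold and 1.06-fold below Il17rc KO, and the interval for S100a13 was 0.787 to 1.39.

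Against untreated WT, calprotectin transcripts were called higher in both knockouts, by 32.0-fold (25.5 to 40.9) for S100a8 and 31.4-fold (25.8 to 38.6) for S100a9 in Il17rd KO. In Il17rc KO the ratios to untreated WT were 3.43 (2.65 to 4.49) for S100a8 and 2.39 (1.90 to 3.04) for S100a9. S100a7a was called higher in Il17rd KO, at a ratio of 3.08 (1.91 to 5.15), and lower in Il17rc KO, where it was 3.01-fold below untreated WT (1.30 to 7.78). Of all genes, 8.30% were called in Il17rd KO (5.12% higher, 3.19% lower), and 13.8% in Il17rc KO (7.08% higher, 6.73% lower). The 6 other members were not called, with log2 ratios between -0.57 and 0.35 in Il17rd KO and between -0.63 and 0.41 in Il17rc KO. These pairs share libraries with those above, so they are side values and not independent checks.

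**Figure D3:**
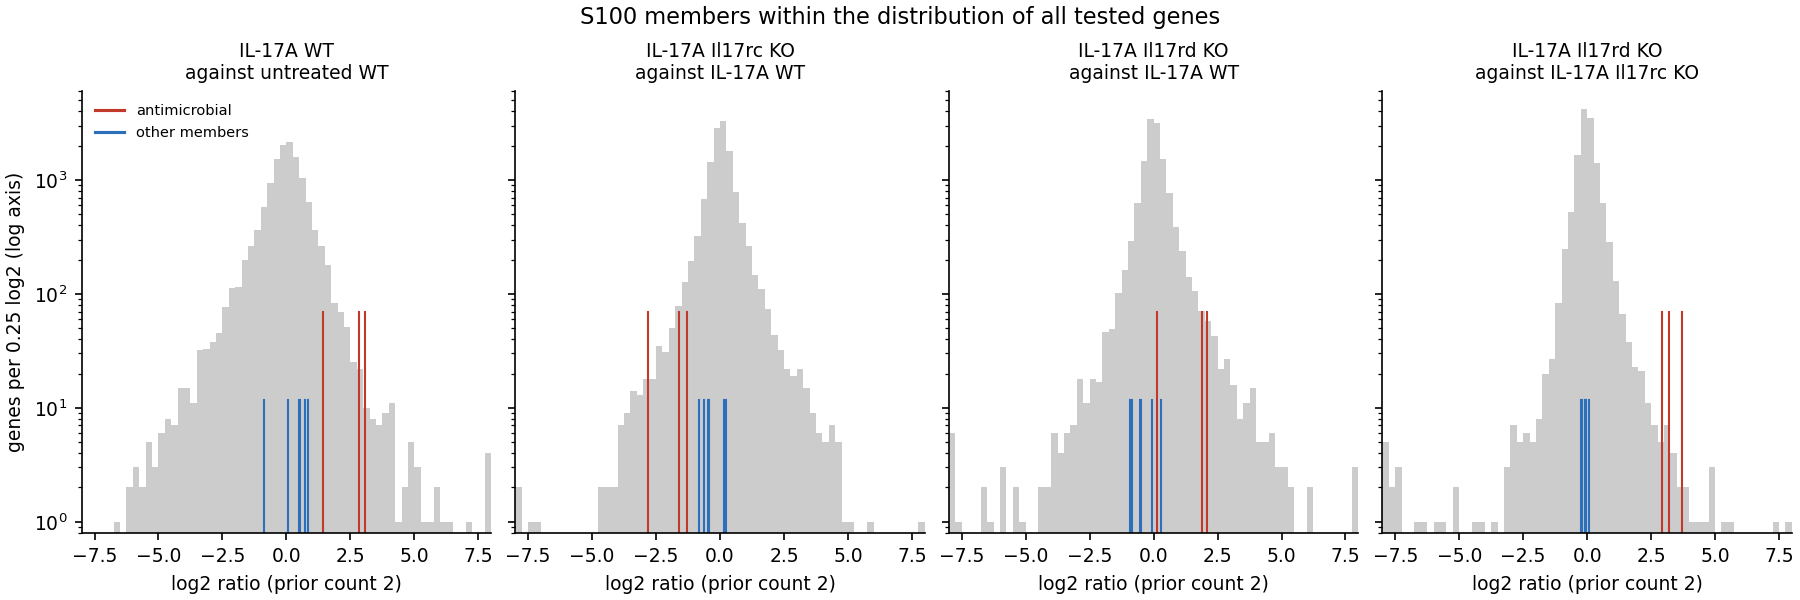
Number of genes per 0.25 of log2 ratio (log axis, 2 counts added, values beyond 8 in size drawn at the edge) for all 12934 genes tested, in 4 pairs of libraries. Red lines mark the 3 antimicrobial members and blue lines the 6 others; in Il17rd KO against Il17rc KO the antimicrobial members lie between 2.93 and 3.70 while the others lie between -0.24 and 0.06.

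Within the antimicrobial group the balance of transcripts also differed between libraries. The ratio of S100a9 to S100a8 per length, from the deposited FPKM (counts divided by gene length and library size), was 1.79 (1.70 to 1.89) in Il17rd KO, 1.28 (1.07 to 1.52) in Il17rc KO, 1.57 (1.41 to 1.74) in IL-17A WT and 1.83 (1.34 to 2.49) in untreated WT. S100a9 was thus the more abundant of the pair per length in all 4 libraries, and the intervals of Il17rd KO and Il17rc KO did not overlap. By counts, without division by length, the ratio in Il17rc KO was 0.959 (0.805 to 1.14). The order of the pair in that library thus depends on the gene lengths used. S100a8 exceeded S100a7a per length by 67.2-fold (53.5 to 85.6) in Il17rd KO, 66.7-fold (33.4 to 156) in Il17rc KO, 19.6-fold (15.2 to 25.7) in IL-17A WT and 6.47-fold (4.01 to 10.8) in untreated WT. S100a7a was the scarcest of the 9 members in every library by both CPM and FPKM.

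By FPKM the top of the family did not change order between libraries. S100a11 came first, at 1563 in Il17rd KO, 1820 in Il17rc KO, 2777 in IL-17A WT and 1897 in untreated WT, which is between rank 10 and rank 15 of all 13102 genes. S100a10 followed, between 1028 and 1937 FPKM, and then S100a6, between 353 and 631 FPKM. S100a9 ranked 101 of all genes in Il17rd KO, 2335 in Il17rc KO, 678 in IL-17A WT and 4869 in untreated WT. In Il17rd KO its 323 FPKM exceeded those of S100a14 and S100a16, at 252 and 137 FPKM, and in the 3 other libraries it was below both. S100a13 had 5.85 to 10.8 FPKM and stood next to last in Il17rd KO, Il17rc KO and IL-17A WT. FPKM here divides by all annotated exon bases of a gene, so a gene with long, little used exons has a lower value.

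The summed level of the 9 members was set mainly by the abundant ones. They took 0.378% of all counts in Il17rd KO (Wilson interval 0.375 to 0.380), 0.370% in Il17rc KO (0.367 to 0.372), 0.550% in IL-17A WT (0.546 to 0.553) and 0.344% in untreated WT (0.341 to 0.347). The antimicrobial members made up 8.22% of these S100 counts in Il17rd KO (8.03 to 8.42), 0.731% in Il17rc KO (0.672 to 0.795), 1.36% in IL-17A WT (1.30 to 1.43) and 0.294% in untreated WT (0.256 to 0.337). The S100 total was thus highest in IL-17A WT and the antimicrobial share highest in Il17rd KO.

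**Figure D4:**
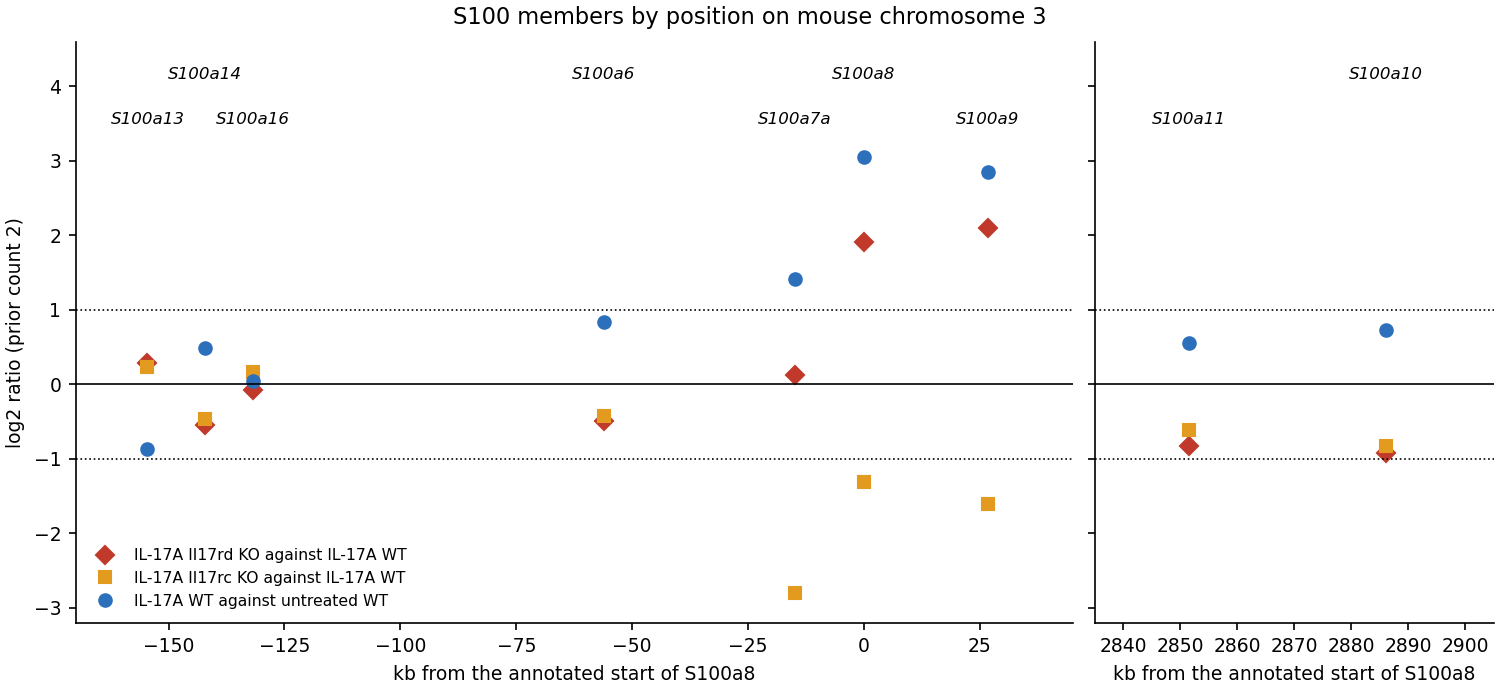
Log2 ratio (2 counts added) of each measured member against the distance of its annotated start from that of S100a8, in kb, in the block around S100a8 (left) and around S100a10 (right). Dotted lines mark 2-fold; the points beyond them belong to the neighbours S100a7a, S100a8 and S100a9, within 26.7 kb of the S100a8 start.

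A further 60 measured genes lie between the first and the last member on chromosome 3, most of them from the Lce and Sprr families or other genes of the cornified envelope. Of these, 5 were called higher and 40 lower in IL-17A WT against untreated WT, 41 higher and 2 lower in Il17rc KO against IL-17A WT, and 45 higher and 3 lower in Il17rd KO against IL-17A WT. Of all genes tested, the shares called higher and lower in these comparisons were 8.68% and 10.5%, 6.02% and 4.68%, and 6.05% and 3.60%. The median log2 ratios of the genes in the span were -1.98, 1.82 and 2.43. S100a8 and S100a9 lay on the opposite side from these medians in the first pair of comparisons and on the same side in Il17rd KO against IL-17A WT.

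The fused-type S100 proteins, large structural proteins of the upper epidermis that begin with an S100 domain, lie in the same region and were all measured (Flg, Flg2, Hrnr, Rptn, Tchh, Tchhl1 and Crnn). As these genes lie in that span, their calls are part of the counts just given and not a separate observation. In IL-17A WT against untreated WT, 0 of 7 were called higher and 6 lower, and the median of their log2 ratios was -3.52. Flg, which encodes filaggrin, had 456 counts in IL-17A WT and 5000 in untreated WT. In Il17rc KO against IL-17A WT, 7 were called higher, and in Il17rd KO against IL-17A WT, 6 were higher and 1, Crnn, lower. Over all genes, the shares called higher and lower were 8.68% and 10.5%, 6.02% and 4.68%, and 6.05% and 3.60% in these comparisons. Crnn, which encodes cornulin, had 10 counts in Il17rd KO, 78 in Il17rc KO, 37 in IL-17A WT and 63 in untreated WT. Their summed level was 431 CPM in Il17rd KO, 389 CPM in Il17rc KO, 87.3 CPM in IL-17A WT and 1394 CPM in untreated WT, so that it was lowest in IL-17A WT and highest in untreated WT.

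**Figure D5:**
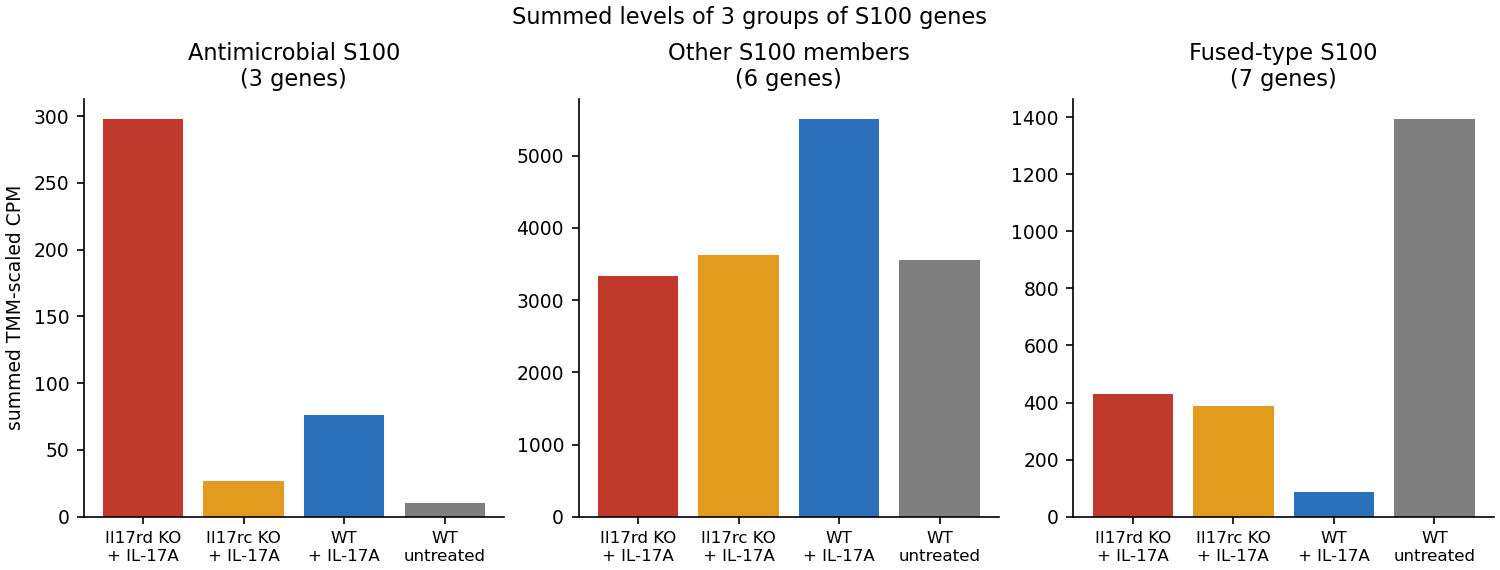
Summed TMM-scaled CPM of the 3 antimicrobial members, the 6 other members and the 7 fused-type S100 genes in each library, on linear axes that start at 0 and differ between panels. The antimicrobial sum is 298 CPM in Il17rd KO and 10.5 CPM in untreated WT, whereas the fused-type sum is 431 CPM in Il17rd KO and 1394 CPM in untreated WT.

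Of a list of 10 further genes (S100 genes and S100pbp, which encodes an S100-binding protein), 4 had a row, and 3 of these reached a mean of 1 CPM. S100a1, S100a3 and S100pbp gave 1 call between them over the comparisons of IL-17A WT with untreated WT and of each KO with IL-17A WT. That call was S100a3, with 12 counts in Il17rd KO and 30 in IL-17A WT, and its annotated exons overlap those of another gene. Of all genes, 19.2% were called in IL-17A WT against untreated WT. The shares were 10.7% in Il17rc KO and 9.65% in Il17rd KO against IL-17A WT. With 3 genes the list cannot be set apart from these shares. S100b, below the mean of 1 CPM, had 18 counts in Il17rd KO, 9 in Il17rc KO, 26 in IL-17A WT and 22 in untreated WT.

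The annexins are membrane-binding partners of several S100 proteins. Of 10 measured genes, 2 were called higher and 1 lower in IL-17A WT against untreated WT, 1 higher and 0 lower in Il17rc KO against IL-17A WT, and 0 higher and 1 lower in Il17rd KO against IL-17A WT. Over all genes the shares called in these comparisons were 19.2%, 10.7% and 9.65%, and the annexin counts are too small to be set apart from them. Anxa1, the partner of S100a11, had 85546 counts in IL-17A WT and 35158 in untreated WT, a ratio of 2.38 (2.35 to 2.41). In the knockouts it had 55872 counts in Il17rd KO and 65716 in Il17rc KO, without a call against IL-17A WT. Anxa2, the partner of S100a10, was not called, with 42389 counts in Il17rd KO, 46155 in Il17rc KO, 48708 in IL-17A WT and 40491 in untreated WT.

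The genes with the profile nearest to each antimicrobial member were found among 11845 named genes, by the Euclidean distance of log2 CPM centred over the 4 libraries. S100a8 and S100a9 were each other's nearest, at a distance of 0.408. Next for both came Serpinb3a, a protease inhibitor gene with 277 counts in Il17rd KO, 20 in Il17rc KO, 23 in IL-17A WT and 3 in untreated WT, at distances of 1.10 and 1.14. Sprr2f, Sprr2e and Steap4 followed for both members, at distances of 1.40 to 1.86. The nearest to S100a7a were Actg2 at 0.291, Zc3h12a at 0.487, Rassf10 at 0.550, Sncg at 0.637 and Il1f6 at 0.731. Zc3h12a, which encodes a ribonuclease that limits inflammatory transcripts, had 3274 counts in Il17rd KO, 646 in Il17rc KO, 3322 in IL-17A WT and 1095 in untreated WT. S100a7a itself was 2.73 away from S100a8 and 2.57 from S100a9. With 4 points per gene, distance is a description only.

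S100a8 and S100a9 are also abundant in neutrophils and monocytes, and markers of such cells were looked up. Of 11 further neutrophil and monocyte markers, such as Ptprc, Itgam, Ly6g and Mpo, none had a row, and each gene in the tables exceeded 1 CPM in at least 2 libraries. Of 9 macrophage, Langerhans cell and other immune markers 4 had a row, with a summed level of 23.0 CPM in Il17rd KO, 6.58 CPM in Il17rc KO, 24.5 CPM in IL-17A WT and 52.9 CPM in untreated WT. Of these 4, 1 was called higher and 0 lower in Il17rd KO against IL-17A WT, 1 higher and 3 lower in Il17rc KO against IL-17A WT, 0 higher and 3 lower in IL-17A WT against untreated WT, and 3 higher and 0 lower in Il17rd KO against Il17rc KO. The all-gene shares called higher and lower, in the same order, were 6.05% and 3.60%, 6.02% and 4.68%, 8.68% and 10.5%, and 2.51% and 1.41%. Most of these marker calls matched S100a8 and S100a9 in side where Il17rc KO was compared with IL-17A WT or Il17rd KO. They lay on the opposite side in IL-17A WT against untreated WT. Lyz2, the most counted of the 4, had 348 counts in Il17rd KO, 67 in Il17rc KO, 396 in IL-17A WT and 796 in untreated WT. The keratinocyte markers Krt5, Krt14, Trp63, Itga6, Itgb4 and Dsp were all measured, gave no call in the 6 comparisons and summed to between 33189 and 42674 CPM. Without a call, Itga6 had 16238 counts in IL-17A WT and 8484 in untreated WT, and Itgb4 had 46248 and 24533. Dsp ran the other way, with 84390 in IL-17A WT and 160544 in untreated WT. The sum, mostly of Krt5 and Krt14, does not show these differences. Melanocyte markers summed to 2201 CPM in Il17rd KO, 2044 CPM in Il17rc KO, 1592 CPM in IL-17A WT and 2430 CPM in untreated WT (7 of 7 measured). Of 14 fibroblast markers 12 were measured, with a summed level of 230 CPM in Il17rd KO, 186 CPM in Il17rc KO, 207 CPM in IL-17A WT and 278 CPM in untreated WT. Vim alone held 3081 of the 4732 summed counts in Il17rd KO and 2527 of 3720 in Il17rc KO. It held 3542 of 4053 in IL-17A WT and 3442 of 5324 in untreated WT, so the sum mostly follows Vim. Of the 12, 8 were called higher and 0 lower in Il17rd KO against IL-17A WT, 7 higher and 1 lower in Il17rc KO against IL-17A WT, and 1 higher and 8 lower in IL-17A WT against untreated WT. Most fibroblast markers thus lay on the same side as S100a8 and S100a9 in the first of these comparisons and on the opposite side in the other two. Endothelial markers (2 of 3 measured) summed to 7.88 to 17.6 CPM. The part of other cells in the S100 ratios was not tested.

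Reads of S100a11 may be shared with copies. At 95% identity or more, 297 bases of its transcript match the processed pseudogenes Gm12854 and Gm7665. Gm12854 had 1076 counts in Il17rd KO, 1038 in Il17rc KO, 1585 in IL-17A WT and 1316 in untreated WT, and Gm7665 had 725, 729, 1095 and 2120 in the same order. S100a11 itself had 16439, 18682, 27823 and 18619 counts, so its values are uncertain by the reads that these copies hold. S100a7a matched a short RNA gene, Gm25072, over 131 bases, and the 7 remaining measured members had no such match.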

How the data were processed

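RNA of cultured keratinocytes was sequenced in 4 libraries, 1 per group. The submitters' processing notes name mm10 as the build, and list edgeR, HISAT2, Trim Galore 0.4.4 and Subread with featureCounts. No source used here gives their settings, annotation or strand option. The deposited counts are whole reads per gene symbol, not normalized. The FPKM values deposited by the authors divide them by gene length and scaled library size. Over the members their log2 ratios matched those of the scaled counts to 8.63e-10, and the lengths they imply matched the annotated exon bases within 0.219%.

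Library sizes were scaled by TMM factors (edgeR 4.0.16) of 1.04 for Il17rd KO, 1.01 for Il17rc KO, 0.984 for IL-17A WT and 0.963 for untreated WT. Intervals of ratios come from the binomial distribution of the counts of a pair of libraries (Clopper-Pearson), intervals of levels from the Poisson distribution (scipy 1.17.1). They cover counting error only, as each group is 1 library. PCR can copy 1 molecule into several reads, and no source used here states a use of molecular identifiers. Where such copies were counted, the intervals are too narrow. A 2-fold limit on size replaced a test, and log2 ratios add a prior count of 2. Copies were sought with BLAST+ 2.17.0 among GENCODE M21 transcripts, at 95% identity over at least 50% of either sequence.

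The members and gene lists were chosen with earlier results of these data known. Named are all members, the 5 nearest profiles of each antimicrobial member (leaving out gene models and the 17 symbols turned into dates) and the measured genes of the lists, with values for up to 6 of each. Lists were further S100 genes, fused-type S100 genes, annexins, receptors, metal partners and cell type markers. Gm12854, Gm7665, Gm25072, Il17rc, Il17rd, Ddx3y and Lyz2 are named outside that rule. Protein sequences were not used here. Alternatives were other scalings, prior counts, fold limits and filters.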

Additional observations from a re-analysis of the deposited data

Results flagged for a closer look

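S100a8 and S100a9 had calls of opposite sign in the knockouts, each set against the same IL-17A WT library. For S100a8 the log2 ratio was 1.91 in Il17rd KO and -1.31 in Il17rc KO. For S100a9 it was 2.10 in Il17rd KO and -1.61 in Il17rc KO. With 1 library per group the difference between the knockouts was not tested, and both ratios share the IL-17A WT counts of 653 for S100a8 and 770 for S100a9. None of the 7 remaining measured members had opposite calls.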

How the results depend on the processing

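No paired analysis was possible because each group has 1 library, and for the same reason no library could be left out. The 54 log2 ratios (9 members in 6 comparisons) kept their sign in every called case under library totals, DESeq2 size factors, a prior count of 0.5 and the deposited FPKM. The largest shifts were 0.11, 0.02, 0.21 and 0.28, the last pair for S100a7a in Il17rc KO against IL-17A WT. As a called log2 ratio is at least 1 in size, shifts this small could not change its sign. The deposited FPKM rest on the same scaled counts, so they are not a separate check. Library totals moved 24 of the 54 beyond their counting interval, none by more than that 0.11. Numbers of members called were the same under both other scalings. With a 1.5-fold limit, IL-17A WT against untreated WT had calls for 3 other members, 2 higher and 1 lower, where none had been called. With that limit 2 other members were lower in Il17rc KO against IL-17A WT, 2 lower in Il17rd KO against IL-17A WT and 1 lower in Il17rc KO against untreated WT. With a 3-fold limit, 1 antimicrobial member instead of 2 was higher and 0 instead of 1 lower in Il17rc KO against untreated WT. That limit also left 2 of 3 antimicrobial calls in IL-17A WT against untreated WT, in Il17rc KO against IL-17A WT and in Il17rd KO against untreated WT. These shifts come from the limits themselves. The shares of all genes called at the 1.5-fold and 3-fold limits are not given here, so these counts cannot be set beside them. Numbers of genes called stayed within 1.5 times without the filter and under library totals. Precision is limited by depth for S100a7a and S100a13, with 8 to 148 counts per library, and by the missing replicates for all members. Depth also limits the ratios of S100a8 and S100a9 to untreated WT, where they had 75 and 103 counts.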

Other observations

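Of 12 listed receptors and binding partners of secreted S100 proteins 8 had a row, and Ager, which encodes the receptor for advanced glycation end products, was not among them. In IL-17A WT against untreated WT 1 was called higher, the adhesion molecule gene Mcam, with 8928 counts in IL-17A WT and 3829 in untreated WT, in a comparison where 19.2% of all genes were called. In Il17rd KO or Il17rc KO against IL-17A WT none was called, where 9.65% and 10.7% of all genes were. Tlr4, a receptor that calprotectin can engage, had 82 counts in Il17rd KO, 62 in Il17rc KO, 53 in IL-17A WT and 58 in untreated WT. Bsg, which encodes basigin, a binding partner of S100a9, was far more abundant, with 11249, 10141, 9008 and 12371 counts in the same order.

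Of 7 measured genes of metal handling and related partners, 0 were called in IL-17A WT against untreated WT, where 19.2% of all genes were called. With 7 genes the list cannot be set apart from that share. Lcn2, whose protein withholds iron from bacteria, had 135 counts in Il17rd KO, 19 in Il17rc KO, 54 in IL-17A WT and 85 in untreated WT. It was called higher in Il17rd KO and lower in Il17rc KO against IL-17A WT, at ratios of 2.38 (1.73 to 3.33) and 0.343 (0.192 to 0.589). Unlike S100a8 and S100a9 it was not called in IL-17A WT against untreated WT, and its counts ran the other way. Hif1a, a transcription factor gene, was the other call in Il17rd KO against IL-17A WT, with 12226 counts in Il17rd KO and 5267 in IL-17A WT. It also had more counts in Il17rc KO, 10743, without a call against IL-17A WT. With 8037 counts of Hif1a in untreated WT, IL-17A WT was the lowest library for this gene. Of all genes, 9.65% were called in Il17rd KO against IL-17A WT and 10.7% in Il17rc KO against IL-17A WT. The metal-binding metallothionein gene Mt1 had 10104 counts in Il17rd KO, 7576 in Il17rc KO, 10816 in IL-17A WT and 7966 in untreated WT, with no call.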
